A study of Mus musculus with 6 samples.

Results

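The Dlk1-Dio3 locus is an imprinted region of mouse chromosome 12 that carries a large number of microRNAs (miRNAs). A miRNA is a short RNA that pairs with mRNAs and reduces how much protein they yield. The miRNAs described here were chosen by name, as those of the maternally expressed clusters of the locus; miR-341 and miR-1188, from the same locus, had been left out of the choice. Of 36 names, 35 were on the arrays among 1078 mouse miRNA reporters. mmu-miR-539 was absent under that name, though its arms were read as mmu-miR-539-5p and mmu-miR-539-3p and are counted among the other miRNAs of the locus. Those that the results turn on are mmu-miR-494, mmu-miR-377, mmu-miR-377*, mmu-miR-134 and mmu-miR-409-3p; the species prefix is left out from here on. The names are old miRBase ones, where the star stands for a hairpin's minor arm.

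The RNA was from passaged cultures of vascular smooth muscle, the cell type that contracts arteries, taken from abdominal aortas of 8-week-old C57BL/6 mice. The control group (n = 3) was left untreated, and the other (n = 3) received the inflammatory cytokine TNF-α, at a dose and for a time not given in the sources used here. The design compares miRNA levels between these groups. Each culture was read on 1 array with 1 colour.

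At this locus Dlk1, Rtl1 and Dio3 are expressed from the paternal chromosome, and the long noncoding RNAs Meg3, Rian and Mirg with the miRNAs from the maternal one. One group of miRNAs (miR-337, miR-431, miR-433, miR-127, miR-434 and miR-136) lies on the opposite strand to Rtl1 and can direct cleavage of its mRNA. The larger group, from miR-379 to miR-410, lies farther along, around Mirg. These miRNAs are known for high levels in brain, embryo and placenta, and in mice inhibition of miR-329, miR-487b, miR-494 or miR-495 has been reported to improve the return of blood flow after an artery is closed.

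Mature sequences are from RefSeq (GRCm38.p6), which held 32 of the 35 members; miR-376c, miR-485 and miR-487b were not among them. The sequences of the 5 members that exceeded background on at least 1 array are shown first, because the values below turn on them, with the seed (bases 2 to 8) in capitals.
miR-494: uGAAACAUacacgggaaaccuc
miR-377: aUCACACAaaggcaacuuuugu
miR-377*: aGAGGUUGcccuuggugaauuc
miR-134: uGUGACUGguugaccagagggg
miR-409-3p: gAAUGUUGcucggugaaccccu

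miR-494 lies at chr12:109715367-109715388, within neither the annotated Rian nor Mirg. miR-377 (chr12:109740553-109740574), miR-377* (chr12:109740515-109740536) and miR-409-3p (chr12:109743204-109743225) lie within the annotated span of Mirg, and miR-134 (chr12:109734145-109734166) lies just before its start. All 5 are on the plus strand. The 32 matched members had 32 different seeds, so no 2 of them shared a full seed. Several were nevertheless close in sequence, and a hybridization signal may not separate such pairs. The pairs with the highest identity, position by position without gaps, are shown with the seed in capitals; they matched at 19 of 22 bases (miR-300 and miR-381), 18 of 21 (miR-376a and miR-376b) and 18 of 22 (miR-495 and miR-543).
miR-300: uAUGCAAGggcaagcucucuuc
miR-381: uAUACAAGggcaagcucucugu
miR-376a: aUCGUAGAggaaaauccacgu
miR-376b: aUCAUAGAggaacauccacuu
miR-495: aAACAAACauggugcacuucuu
miR-543: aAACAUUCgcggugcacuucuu

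The arrays gave 1 scanner density per reporter, with background included. On each array most reporters formed 1 peak of dim values, at 68.6 to 76.6 in controls and 80.4 to 90.9 with TNF-α. A background limit was set for each array at this peak plus 3 SD of the values below it, which came to 94.6 to 103.2 in controls and 114 to 131 with TNF-α. Both the peak and the spread of dim values (SD 7.70 to 8.85 against 11.3 to 13.3) were higher on every TNF-α array than on any control array. Group and array set coincide in this respect, so the treatment and a technical shift cannot be told apart. The smooth muscle markers miR-143 and miR-145 were above the limit on all 6 arrays, with a summed density of 7699 to 9551 in controls and 8799 to 10381 with TNF-α. Of 19 markers of other cell types on the arrays, miR-126-3p (endothelium), miR-206 (striated muscle) and miR-128 (neurons) exceeded the limit on all 6 arrays and miR-150 (blood) on 1 control array. The other markers of the same types did so on no array: miR-126-5p (endothelium), miR-133a (striated muscle), and miR-124 and miR-9 (neurons). Nor did miR-142-3p, miR-142-5p, miR-223, miR-144 and miR-451 (blood), miR-122 (liver) or the 5 epithelial markers. In cultures, fewer cells of a type and less RNA per cell cannot be told apart.

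Most of the 35 members were at background in these cells, and miR-494 alone among them was above it on all 6 arrays. Of the 35 members, 30 (85.7%) exceeded the limit on no array, against 66.6% of all 1078 reporters. On single arrays 2 or 3 members were above the limit, in controls and with TNF-α alike (5.71% or 8.57% of members), where 26.1% to 29.2% of all reporters were above it in controls and 22.4% to 23.4% with TNF-α. miR-134, miR-377 and miR-409-3p were above it on 3 arrays each and miR-377* on 1. These 5 belong to the miR-379 to miR-410 group of 26 members. The 8 members on the opposite strand to Rtl1, and miR-370, stayed below the limit on each array, with densities of 46.1 to 91.4 for the 8 in controls and 58.5 to 117 with TNF-α. With a limit at 5 SD, 2 members rather than 4 were above it on at least 3 arrays, miR-494 and miR-134.

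**Figure D1:**
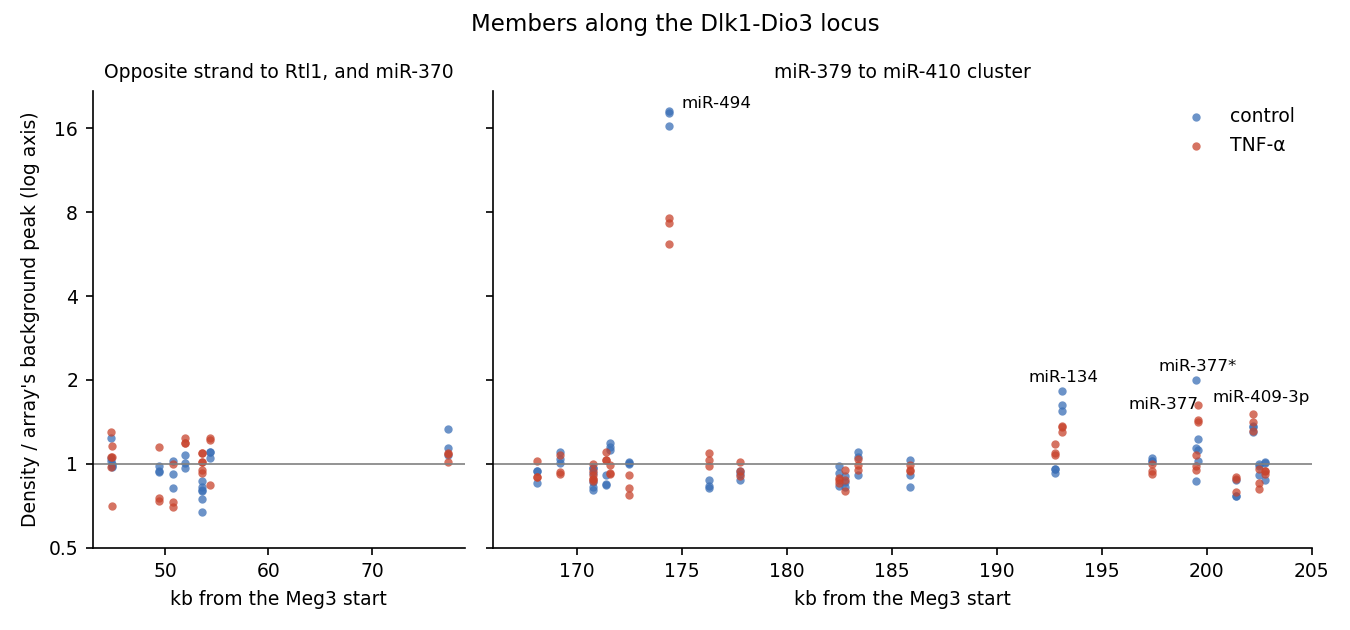
Density of 32 members with a known position, divided by the background peak of the same array (log axis), against the distance from the start of Meg3 in kb; each point is 1 array, blue for control and red for TNF-α, and the grey line marks the peak. miR-494 stands at 16.4 to 18.5 times the peak in controls and 6.13 to 7.64 times with TNF-α, and most other members scatter around 1. Over all arrays miR-134 lies at 1.30 to 1.82 and miR-409-3p at 1.30 to 1.51. miR-377 lies at 1.41 to 1.63 with TNF-α, and miR-377* reaches 2.00 on 1 control array.

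miR-494 fell with TNF-α. Its density was 1363, 1386 and 1122 on the control arrays and 689.7, 666.8 and 492.7 on the TNF-α arrays (1290.5 ± 146 and 616 ± 108, SD, n = 3 each). The TNF-α arrays were all below the control arrays, and the groups did not overlap. The standard deviation that the authors deposited beside each density was 76.6 to 92.7 for miR-494 in controls and 76.1 to 116 with TNF-α. It belongs to a single array and does not measure the spread between cultures. After normexp background correction with an offset of 50, log2 and quantile normalization, miR-494 was 1.86-fold lower with TNF-α (log2 -0.90 ± 0.10, SE, n = 3 per group, 95% interval -1.11 to -0.68, limma adjusted p = 0.00135). Among all 1078 reporters this was the second lowest change. It passed under all 17 alternative settings, with values of -1.15 to -0.81 and adjusted p of 0.000114 to 0.0203. The offset understates changes, and with the smaller offset of 8 the value was -0.94.

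The other arm of the same hairpin and the nearest members were at background. miR-494* was at 66.8 to 81.8 in controls and 73.6 to 91.7 with TNF-α, above the limit on no array, with a change of -0.025 (95% interval -0.20 to 0.15, limma adjusted p = 0.874). The 6 members nearest to miR-494, miR-329, miR-543, miR-323-3p, miR-1197, miR-495 and miR-380-3p, start within 3.525 kb of it. Their densities were 56.4 to 98.4 over all arrays, and none of the 6 exceeded the limit on any array. Of the 6, miR-323-3p passed as lower (-0.27) and miR-543 (0.34) and miR-1197 (0.33) as higher, with values given further on. The changes of the other 3 did not pass, at -0.24 for miR-329 (limma adjusted p = 0.0584), 0.075 for miR-495 (0.555) and 0.089 for miR-380-3p (0.510). No test compared the change of miR-494 with theirs.

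**Figure D2:**
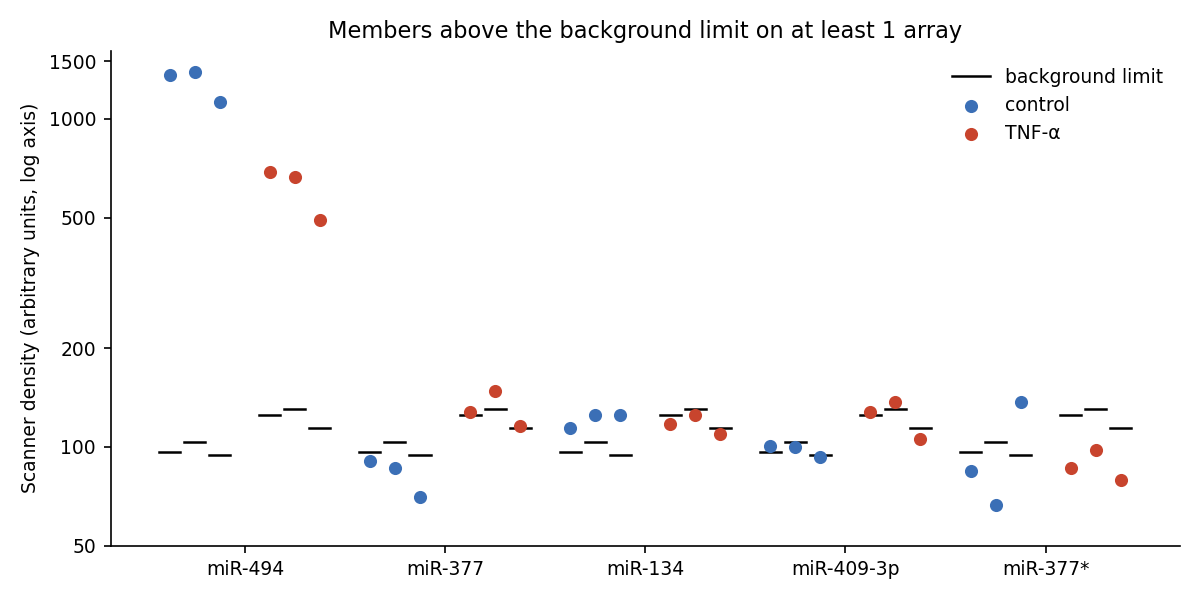
Scanner density (arbitrary units, log axis) of the 5 members that exceeded background on at least 1 array; each point is 1 array, blue for control and red for TNF-α, and the short black line is the background limit of that array. miR-494 lies far above the limit on all 6 arrays, and the other 4 lie close to it.

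miR-377 rose from background with TNF-α. Its density was 90.8, 86.3 and 70.5 in controls and 127.5, 148 and 116 with TNF-α (82.5 ± 10.7 and 130.5 ± 16.5, SD, n = 3 each). All 3 TNF-α arrays were above the limit, 2 of them by a small margin (127.5 against 125.2 and 116 against 114), and no control array was. Since no control value was above background, its fold has only a lower bound, at least 1.19-fold higher with TNF-α. For this bound each control array was given its lowest normalized value above the limit, or the miRNA's own value if that was larger. The fitted change was 0.50 ± 0.10 (SE, n = 3 per group, 95% interval 0.28 to 0.73, limma adjusted p = 0.0127). It did not pass without control replicate 2 (0.50, adjusted p = 0.0547) or with the background peak subtracted (0.69, adjusted p = 0.0664), and was 0.84 in the authors' processed table; over the 17 alternatives the adjusted p was 0.000828 to 0.0664.

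miR-377*, from the same hairpin, did not follow. Its density was 84.2, 66.5 and 137 in controls and 86.1, 97.9 and 79.1 with TNF-α. Control replicate 3 alone was above the limit and the groups overlapped. The change was -0.30 (95% interval -0.86 to 0.27, limma adjusted p = 0.472), and 0.039 without control replicate 3.

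miR-134, known from neurons as a repressor of Limk1, was above the limit on the 3 control arrays and on no TNF-α array. Its density was 113.9, 125.1 and 125.2 in controls and 117, 124.8 and 109.4 with TNF-α. The densities of the groups overlapped, and it was the higher limit on the TNF-α arrays that put their values below it. After normalization the groups did not overlap, but the change of -0.22 ± 0.09 (SE, n = 3 per group, 95% interval -0.42 to -0.03) did not pass the test (limma adjusted p = 0.113), and it was 0.056 when arrays were scaled to the median of detected reporters (median scaling), a setting that moved the median of all reporters by 0.30. Relative to that median it was -0.24.

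miR-409-3p was close to the limit in both groups. Its density was 100.3, 99.8 and 92.9 in controls, with 1 array above the limit, and 127.7, 137 and 105.4 with TNF-α, with 2 above. The densities of the groups did not overlap, nor did the normalized values. The change of 0.15 ± 0.08 (SE, n = 3 per group, 95% interval -0.03 to 0.33) did not pass (limma adjusted p = 0.243). It passed without normalization (0.30) and with median scaling (0.44), settings under which the median of all reporters also moved, by 0.16 and 0.30.

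Over all 35 members, each tested with no filter on dim values, 10 passed the test at an adjusted p of 0.05 over all reporters, 8 as higher with TNF-α and 2 as lower. Among all 1078 reporters 162 passed (15.0%), 84 as higher (7.79%) and 78 as lower (7.24%). The median change was 0.038 on the log2 scale over the members and -0.00025 over all reporters. The normalized values of the groups did not overlap for 16 of the 35 members, against 35.7% of all reporters. Of the 4 members above the limit on at least 3 arrays, 2 passed, miR-494 and miR-377, against 28.1% of all such reporters. miR-377 met this condition only through the TNF-α arrays, and miR-134 only through the controls. The condition is thus not independent of the change and lends the call of miR-377 no support. The remaining 8 calls were in members that exceeded the limit on no array. These 8 were of 30 members that never exceeded the limit, and among all reporters of that kind 9.89% passed, 5.43% as higher and 4.46% as lower.

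The split between higher and lower depended on the scaling of the arrays. Without normalization 14 members passed upward and 1 downward, under median scaling 20 and 1, and 5 and 3 in the authors' processed table; for all reporters the splits were 271 and 45, 467 and 24, and 75 and 117. Leaving out control replicate 1, 2 or 3 left 4, 2 or 5 members past the threshold. Leaving out TNF-α replicate 1, 2 or 3 left 10, 5 or 5. For all reporters the counts with 1 array left out were 66 to 149, lowest without control replicate 2.

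**Figure D3:**
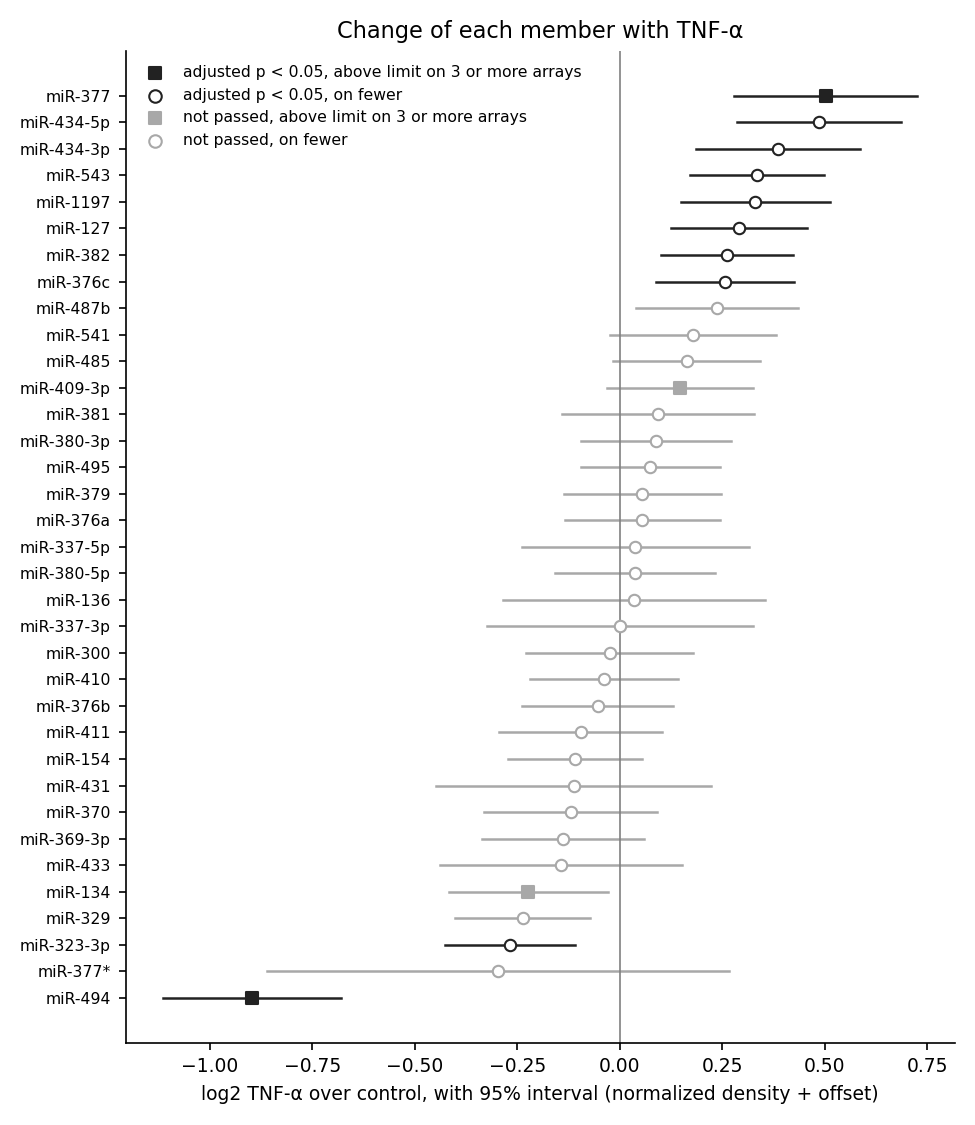
Estimated change of each of the 35 members with TNF-α (log2 TNF-α over control, with 95% interval); dark symbols passed at an adjusted p of 0.05, and filled squares were above the background limit on at least 3 arrays. miR-494 at -0.90 and miR-377 at 0.50 are the only 2 that meet both, and the other 8 dark symbols are open circles. miR-377 was above the limit on TNF-α arrays only.

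Among members on the opposite strand to Rtl1, 3 of 8 passed as higher and 0 as lower, none of them above background, where 5.43% of all reporters never above the limit passed as higher; the 3 are both arms of miR-434, and miR-127. miR-434-5p was at 55.2, 63.2 and 46.1 in controls and 92.0, 92.2 and 76.3 with TNF-α, with a change of 0.49 ± 0.09 (SE, n = 3 per group, limma adjusted p = 0.0105). miR-434-3p was at 64.1, 61.3 and 55.5 in controls and 98.5, 99.8 and 74.6 with TNF-α, with a change of 0.39 ± 0.09 (adjusted p = 0.0214). For both arms the control values were below the background peak of their arrays, and the TNF-α values lay around it. miR-127, known to direct cleavage of the Rtl1 mRNA, was at 71.4, 77.4 and 73.8 in controls and 107.3, 112 and 95.4 with TNF-α, with a change of 0.29 ± 0.07 (adjusted p = 0.0315). The sequences of these 3, shown because they make up every call of this group, have the seed in capitals.
miR-434-5p: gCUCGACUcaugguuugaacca
miR-434-3p: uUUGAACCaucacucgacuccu
miR-127: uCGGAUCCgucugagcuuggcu

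In the miR-379 to miR-410 group, 5 of 26 members passed as higher and 2 as lower, against 7.79% and 7.24% of all reporters. Apart from miR-377 and miR-494 these were near background. miR-543 was at 64.4, 64.1 and 56.4 in controls and 98.4, 94.1 and 79.1 with TNF-α (0.34 ± 0.07, SE, limma adjusted p = 0.0167). miR-1197 was at 61.9, 64.9 and 62.8 in controls and 93.1, 94.1 and 88.9 with TNF-α (0.33 ± 0.08, adjusted p = 0.0266). For both, all TNF-α densities were above all control densities, and all stayed under the limit of their array. miR-382 was at 70.5, 71.1 and 65.6 in controls and 106, 99.8 and 86.2 with TNF-α (0.26 ± 0.07, adjusted p = 0.0381). miR-376c was at 65.1, 65.0 and 54.9 in controls and 84.2, 92.6 and 80.4 with TNF-α (0.26 ± 0.07, adjusted p = 0.0487). miR-323-3p passed as lower, at 87.6, 88.4 and 76.8 in controls and 89.4, 84.5 and 73.8 with TNF-α (-0.27 ± 0.07, adjusted p = 0.0347). Its densities overlapped between the groups, and the difference appeared only relative to the other reporters of each array.

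Set against the background of their own arrays, the members that passed as higher without exceeding the limit moved from below the background peak to near it. There were 7 of them, and 6 lay below the peak on all 3 control arrays, the exception being miR-127. In units of the SD of dim values they were at -2.60 to 0.595 in controls and at -0.518 to 1.63 with TNF-α, where the limit is 3. With the background peak of each array subtracted, 3 members passed, miR-494 (-0.93), miR-127 (0.37) and miR-323-3p (-0.25), beside 91 reporters in all. The change of miR-434-5p was then 0.012, that of miR-376c 0.010, and those of miR-434-3p, miR-543, miR-1197 and miR-382 were 0.13, 0.083, 0.10 and 0.23. That setting puts values below the peak at a floor. The 6 lay below the peak in all controls and near it with TNF-α, so their changes were bound to shrink under this setting. It therefore cannot show what part the background had. The higher background of the TNF-α arrays moved with these calls, and its part in them was not tested.

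**Figure D4:**
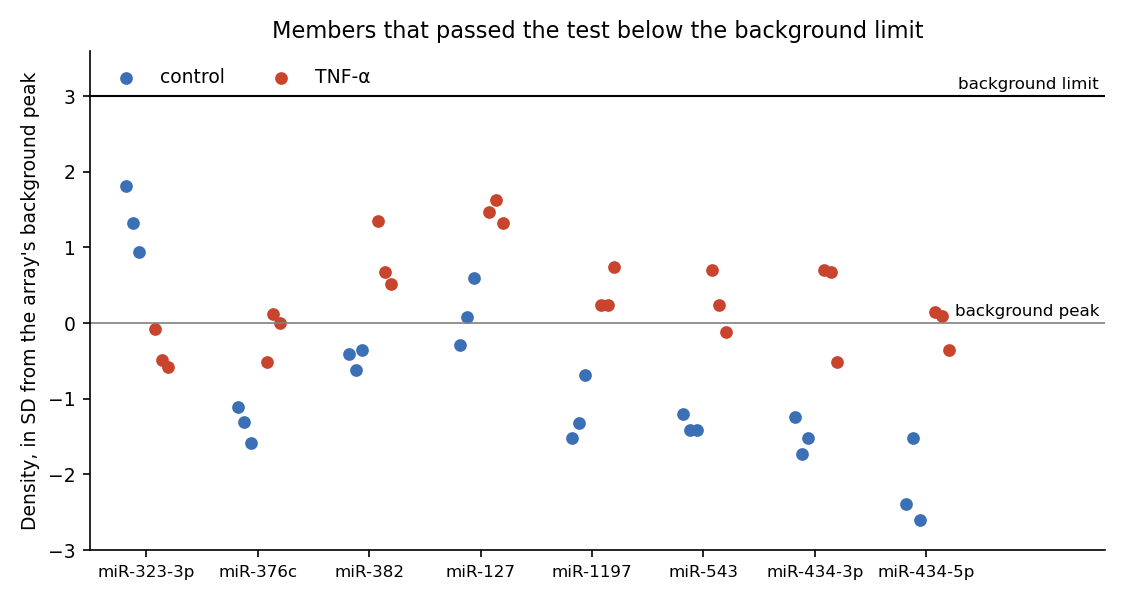
The 8 members that passed the test without exceeding the background limit on any array; each point is 1 array, as the distance of its density from that array's background peak in SD of the dim values, blue for control and red for TNF-α. All points lie under the limit at 3, between -2.60 and 1.82.

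With 1 array left out the changes of these 8 kept their direction, but most fell short of the threshold in some of these smaller fits, in which fewer reporters passed overall. miR-434-5p passed without each of the 6 arrays in turn (0.45 to 0.58). miR-382 did not pass whichever array was left out (0.22 to 0.29). miR-434-3p passed only without TNF-α replicate 3 (0.47), and miR-376c (0.30) and miR-323-3p (-0.30) only without TNF-α replicate 1. The call of miR-543 was lost when control replicate 2 (0.33) or 3 (0.33) was left out. For miR-1197 this held of control replicate 1 (0.29), control replicate 2 (0.32) and TNF-α replicate 3 (0.30). For miR-127 it held of control replicate 1 (0.24), control replicate 2 (0.28), TNF-α replicate 2 (0.27) and TNF-α replicate 3 (0.30).

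The other 22 members neither exceeded the limit nor passed the test. They were miR-136, miR-337-3p, miR-337-5p, miR-431 and miR-433 opposite Rtl1, miR-370, and, of the larger group, miR-154, miR-300, miR-329, miR-369-3p, miR-376a, miR-376b, miR-379, miR-380-3p, miR-380-5p, miR-381, miR-410, miR-411, miR-485, miR-487b, miR-495 and miR-541. Their densities ran from 52.5 to 117 over all arrays and their changes from -0.24 to 0.24, with limma adjusted p of 0.0584 to 1. That these did not pass does not show that they were unchanged.

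Other miRNAs of the locus were read as well. Of 29 other arms of the hairpins of the 36 names, 3 passed as higher and 1 as lower, and 0 of these 4 exceeded the limit on any array. The 29 include miR-539-5p and miR-539-3p, which neither passed nor exceeded the limit on any array. Of 44 reporters from other hairpins of the locus, 7 passed as higher and 0 as lower. In either direction these are 13.8% and 15.9% of the lists, near the 15.0% of all reporters. By direction, 7.79% of all reporters passed as higher and 7.24% as lower, and the calls of the second list were all higher. Of the 73 in both lists, 7 were above the limit on at least 3 arrays, and 2 of these passed, miR-341* and miR-1188. The latter reached 3 arrays through the TNF-α group alone. miR-341* was at 2933, 2864 and 1901 in controls and 6536, 6213 and 5510 with TNF-α (1.26 ± 0.09, SE, n = 3 per group, limma adjusted p = 0.000137), in the direction opposite to miR-494. miR-1188 was at 87.2, 83.8 and 88.4 in controls, under the limit on each array, and at 147.4, 169 and 137 with TNF-α, at least 1.40-fold higher (0.67 ± 0.09, adjusted p = 0.00356). Among the 5 that did not pass, miR-3072*, miR-3070b-3p and miR-485* were above the limit on all 6 arrays. They are named here for that reason, after their values were seen. miR-3072* was at 1386, 1335 and 1170 in controls and 980.6, 869 and 872 with TNF-α. Its densities did not overlap between the groups, and its change of -0.28 ± 0.09 (SE, n = 3 per group, limma adjusted p = 0.0623) had the direction of miR-494. miR-3070b-3p was at 127.8, 128.6 and 123.6 in controls and 210, 143.7 and 147.8 with TNF-α. Its densities did not overlap either, and its change of 0.27 ± 0.13 (SE, n = 3 per group, limma adjusted p = 0.196) had the opposite direction. The change of miR-485* was 0.052 (limma adjusted p = 0.777). No test compared these 73 reporters with the members.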

How the data were processed

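The authors deposited scanner intensities, linear values per the file headers: a median density and its standard deviation for every reporter and array, with background still included. Per the labels' protocols total RNA was tailed, tagged and stained with Cy5; no source used here gives the scanner or its software. A processed table of intensities, deposited by the authors with scale between arrays unstated (medians 8.39 to 12.0, lowest value 0.01), was an alternative, with 32 added before log2.

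Densities were corrected with normexp (offset 50), taken to log2 and quantile normalized, then fitted with limma 3.58.1 (R 4.3.3) with group as the only term and no filter, so that no reporter entered through the group where it was bright. Tests were two-sided, with Benjamini-Hochberg adjustment over 1078 reporters. The background peak is the mode of densities under 300. Members past the threshold, or above the background limit on at least 1 array, are named with values, as are other miRNAs of the locus that passed and were above it on at least 3 arrays. Unnumbered arms were matched to RefSeq by their usual miRBase arm. Members, lists and tests were chosen with earlier results of these data known. The labels call the cultures independently grown; 2 TNF-α arrays are both labelled replicate 3, so arrays were numbered in accession order. The number of arrays limits the precision. The procedure was tested on simulated data, with changes planted only in reporters clearly above background and dim values drawn as noise around each array's peak. Recovery of changes near background was therefore not tested.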

Additional observations from a re-analysis of the deposited data

How the results depend on the processing

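Of the 17 alternatives, all kept the fall of miR-494 past the threshold. The number of reporters that passed, 162, was 316 without normalization, 491 when arrays were scaled to the median of detected reporters (median scaling), 100 with an offset of 8, 107 with only reporters above the background limit on at least 3 arrays tested (281), 91 with the background peak subtracted, and 66 to 149 with 1 array left out in turn. The number of members that passed, 10, was 21 with median scaling, 6 with a filter at a corrected density of 32 on at least 3 arrays (11 members tested), 2 with the filter at the limit (4 members tested), 3 with the peak subtracted, and 2 to 10 with 1 array left out. Members above background on at least 3 arrays numbered 4, and 2 with the limit at 5 SD. With median scaling miR-134 (0.056), miR-323-3p (0.060) and miR-377* (0.046) changed sign, a setting that moved the median of all reporters by 0.30; relative to that median they were -0.24, -0.24 and -0.25. With 1 array left out miR-377* ran from -0.56 without control replicate 2 to 0.039 without control replicate 3. Deviations from the group means correlated at 0.139, 0.0113 and 0.238 between same-numbered arrays over 281 reporters. The same-numbered TNF-α array was the best match for control replicates 1 and 3, but not for control replicate 2. These values do not settle whether the array numbers pair the cultures. With the replicate block 101 reporters and 6 members passed, 5 as higher and 1 as lower. Where a call was lost, the cause was not tested, except that fewer reporters were tested under the filters and fewer arrays with 1 left out. Background limits what can be read for 30 of the 35 members.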

Other observations

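The sequence of miR-494 was compared with 1678 other mature mouse miRNAs in RefSeq, without gaps and with shifts of up to 3 bases. The closest was the 3p arm of miR-154, with 15 of 22 bases identical. Both reporters given here were picked outside the rule for named miRNAs and with values known, the first by sequence. The second was taken from several miRNAs with equal matches, so sequence alone did not pick it. The reporter of that arm, miR-154*, was at 81.7, 72.8 and 70.0 in controls and 79.3, 83.6 and 74.4 with TNF-α, above the limit on no array, and its change was -0.17 (limma adjusted p = 0.194). miR-495, 1 of at least 4 that came next with 14 of 22 bases identical, exceeded the limit on no array. The 3p arm of miR-485 matched at as many bases. Its reporter, miR-485*, was above the limit on all 6 arrays, at 153.6, 117.6 and 122.7 in controls and 149.4, 156.4 and 126.05 with TNF-α, with a change of 0.052 (limma adjusted p = 0.777).

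The GC content of the 5 members that exceeded the limit was 36.4% to 59.1%, and that of the 27 others with a sequence 23.8% to 68.2%.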
